A study of Brassica rapa with 9 samples.

Results

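The genes described here are 5 Brassica rapa gene IDs of the carotenoid pathway, out of 41020 IDs counted in each library. They were chosen by ID, as 3 IDs of phytoene synthase (PSY; Bra006391, Bra008569 and Bra023603) and 2 IDs of carotenoid isomerase (CRTISO; Bra031539 and Bra031538, which carry consecutive IDs). The rule names IDs and no measured value, although earlier results of these data were known when it was written. The enzyme names belong to the list that defined the set, because the deposited files hold IDs without names and the RefSeq gene table of B. rapa used here pairs none of the 5 IDs with a name. No coordinates, gene lengths or sequences could therefore be given for them.

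Phytoene synthase joins a pair of geranylgeranyl diphosphate molecules into phytoene, the first committed and often rate-limiting step of carotenoid synthesis in plastids. Carotenoid isomerase acts later and turns the poly-cis lycopene made by the desaturases into all-trans lycopene, from which lutein, beta-carotene and the xanthophylls are made. Carotenoids harvest light, protect the photosynthetic apparatus from excess light and are precursors of abscisic acid and strigolactones. In Arabidopsis, PSY transcription is raised by light through phytochromes and is repressed by the phytochrome-interacting factor PIF1. In Chinese cabbage, loss of CRTISO function gives orange inner leaves that accumulate prolycopene.

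RNA-seq libraries came from whole seedlings of cultivar Chiifu, with 3 libraries for each of 3 genotypes. The G564E plants carried an Arabidopsis thaliana phytochrome B in which glycine is replaced by glutamate, the AtPHYB plants carried the unmodified Arabidopsis receptor, and the NT plants were non-transgenic. All plants were 2 weeks old, had no heat treatment, and were grown in the LD condition of the labels on 1/2 MS medium with 0.5% sucrose. The labels give neither the promoter of the transgenes, nor the number of lines, nor whether a library was 1 plant or a pool, so the p-values refer to the variation among these libraries, and some of it may be technical.

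Total counts ranged from 15262884 to 20998541 per library. Levels are given as CPM, read counts scaled to a common library total, on library sizes scaled by the trimmed mean of M values (TMM). Across tested genes, G564E replicate 1 had Spearman correlations of 0.915 and 0.912 with G564E replicates 2 and 3, which correlated at 0.985 with each other. NT replicate 3 had correlations of 0.969, 0.970 and 0.978 with AtPHYB replicates 1 to 3, against 0.967 and 0.963 with NT replicates 1 and 2. It thus lay closer to every AtPHYB library than to either other NT library. Fold changes that lost or gained a call, changed sign or moved by over 1.5 times without these libraries are given with and without them. In whole seedlings, a change in the RNA of a gene per cell and a change in the share of cells or organs that express it cannot be told apart.

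All 5 IDs passed the low-count filter, among 27967 IDs that did. Bra031538 passed it through its G564E libraries: its level reached the filter's cut, 0.540 CPM on unscaled library sizes, in 3 of 3 G564E libraries, 0 of 3 AtPHYB libraries and 1 of 3 NT libraries. A difference of Bra031538 between G564E and the other genotypes was favoured by this filter, so its tests are given as values and are not counted as support for the others.

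Among the PSY IDs, Bra023603 had the largest fold changes in both comparisons of G564E. It had 24.0, 27.0 and 23.3 CPM in G564E replicates 1 to 3, against 12.6, 11.5 and 11.4 CPM in AtPHYB and 11.7, 13.3 and 18.4 CPM in NT. All G564E libraries lay above all others, and the AtPHYB and NT libraries overlapped. The means were 24.8 ± 1.97 CPM in G564E, 11.8 ± 0.645 CPM in AtPHYB and 14.5 ± 3.48 CPM in NT (SD, n = 3 each). Bra023603 was higher in G564E than in NT by a log2 fold change of 0.78 ± 0.18 (SE), or 1.71-fold (edgeR adjusted p = 0.0130, from its quasi-likelihood test with adjustment over all tested genes). Against AtPHYB it was higher by a log2 fold change of 1.06 ± 0.18 (SE), or 2.09-fold (edgeR adjusted p = 0.00281). An adjusted p under 0.05 was the threshold for a call. Both comparisons share the G564E libraries, and 10.9% of all tested genes were called higher in G564E in both. Bra023603 kept both calls with each single library left out, and with G564E replicate 1 and NT replicate 3 left out together. Leaving out that pair gave log2 fold changes of 1.00 against NT and 1.08 against AtPHYB (edgeR adjusted p = 0.00181 and 0.000447). Over the fits with a single library dropped, the edgeR adjusted p ran from 0.00556 to 0.0483 against NT. Against AtPHYB it ran from 0.00114 to 0.0165. The call against NT thus lay close to the threshold in some fits. Its edgeR adjusted p reached 0.0483 when NT replicate 2 was dropped, and 0.0484 when only the G564E and NT libraries were fitted.

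The second PSY ID, Bra006391, had 17.1, 25.4 and 15.8 CPM in G564E replicates 1 to 3, 12.0, 13.4 and 12.5 CPM in AtPHYB, and 14.7, 16.8 and 18.1 CPM in NT. The G564E libraries lay above the AtPHYB libraries and overlapped with NT, while the AtPHYB libraries lay below all NT libraries. Means were 19.4 ± 5.22 CPM in G564E, 12.6 ± 0.739 CPM in AtPHYB and 16.6 ± 1.71 CPM in NT (SD, n = 3 each). Bra006391 was higher in G564E than in AtPHYB by a log2 fold change of 0.62 ± 0.19 (SE), or 1.54-fold (edgeR adjusted p = 0.0351). G564E replicate 2 was the highest of all libraries at this ID, and without it the log2 fold change was 0.37 and the call was lost (edgeR adjusted p = 0.105). The call was also lost without AtPHYB replicates 1, 2 or 3 (edgeR adjusted p = 0.105, 0.0792 and 0.102) and without NT replicates 1 or 2 (edgeR adjusted p = 0.0509 and 0.0544), whereas it was kept without NT replicate 3 (edgeR adjusted p = 0.0467). Against NT, the log2 fold change in G564E was 0.23 ± 0.19 (SE) and did not pass the threshold (edgeR adjusted p = 0.397). Without G564E replicate 1 and NT replicate 3 together, that value was 0.38 (edgeR adjusted p = 0.209).

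The third PSY ID, Bra008569, had the most reads of the 5 IDs, 4310 in G564E, 4071 in AtPHYB and 5229 in NT when summed over 3 libraries each. It had 66.4, 81.6 and 63.6 CPM in G564E replicates 1 to 3, 90.8, 66.5 and 82.5 CPM in AtPHYB, and 55.2, 85.8 and 139 CPM in NT. The NT libraries spanned a 2.51-fold range that enclosed all 6 transgenic libraries, and the G564E and AtPHYB ranges overlapped in part. Log2 fold changes were -0.40 for G564E minus NT, -0.18 for G564E minus AtPHYB and -0.22 for AtPHYB minus NT, each ± 0.30 (SE) (edgeR adjusted p = 0.342, 0.666 and 0.782). Without NT replicate 3, the value was -0.012 for G564E minus NT and 0.18 for AtPHYB minus NT (edgeR adjusted p = 0.980 and 0.768). The 95% interval of the log2 fold change ran from -1.08 to 0.27 for G564E minus NT and from -0.86 to 0.50 for G564E minus AtPHYB.

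The mean level of the CRTISO ID Bra031539 was highest in G564E and lowest in NT. It had 27.7, 27.6 and 30.3 CPM in G564E replicates 1 to 3, 21.7, 23.3 and 21.9 CPM in AtPHYB, and 14.4, 16.2 and 24.1 CPM in NT. The G564E libraries lay above all others, while NT replicate 3 was above every AtPHYB library and the other NT libraries were below them. Means were 28.5 ± 1.54 CPM in G564E, 22.3 ± 0.878 CPM in AtPHYB and 18.2 ± 5.13 CPM in NT (SD, n = 3 each). Bra031539 was higher in G564E than in NT by a log2 fold change of 0.65 ± 0.18 (SE), or 1.56-fold (edgeR adjusted p = 0.0314). This call was lost without any single library other than NT replicate 3 and G564E replicate 1, with edgeR adjusted p between 0.0506 and 0.102, and in a fit of the G564E and NT libraries alone (edgeR adjusted p = 0.0933). Its direction held in all of these fits.

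For G564E minus AtPHYB, Bra031539 had a log2 fold change of 0.35 ± 0.18 (SE), which did not pass the threshold (edgeR adjusted p = 0.163), although all G564E libraries lay above all AtPHYB libraries. When the fit left out NT replicate 3, a library of neither genotype compared, the log2 fold change was 0.35 and the edgeR adjusted p was 0.0478. For AtPHYB minus NT its log2 fold change was 0.29 ± 0.18 (SE) (edgeR adjusted p = 0.525). When both NT replicate 3 and G564E replicate 1 were left out, that value was 0.54 with an edgeR adjusted p of 0.0224. Without NT replicate 3 alone it was also 0.54, with an edgeR adjusted p of 0.0806.

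The CRTISO ID Bra031538 was counted at a low level, with 74 reads in G564E, 15 in AtPHYB and 27 in NT over 3 libraries each. It had 1.34, 0.507 and 1.62 CPM in G564E replicates 1 to 3, 0.333, 0.271 and 0.284 CPM in AtPHYB, and 0.479, 0.587 and 0.380 CPM in NT. G564E replicate 2 lay within the NT range, and the other G564E libraries lay above all other libraries. The log2 fold change was 1.95 ± 0.50 (SE) for G564E minus AtPHYB (edgeR adjusted p = 0.0178) and 1.25 ± 0.48 (SE) for G564E minus NT (edgeR adjusted p = 0.0814). Without G564E replicate 3 the first of these was 1.62 (edgeR adjusted p = 0.0631), and without AtPHYB replicates 1, 2 or 3 its edgeR adjusted p was 0.0521, 0.0657 and 0.0672. Without G564E replicate 2 the second was 1.59 (edgeR adjusted p = 0.0325). Reads shared between Bra031538 and Bra031539, or among the PSY IDs, could not be examined, and similar copies could exchange reads.

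**Figure D1:**
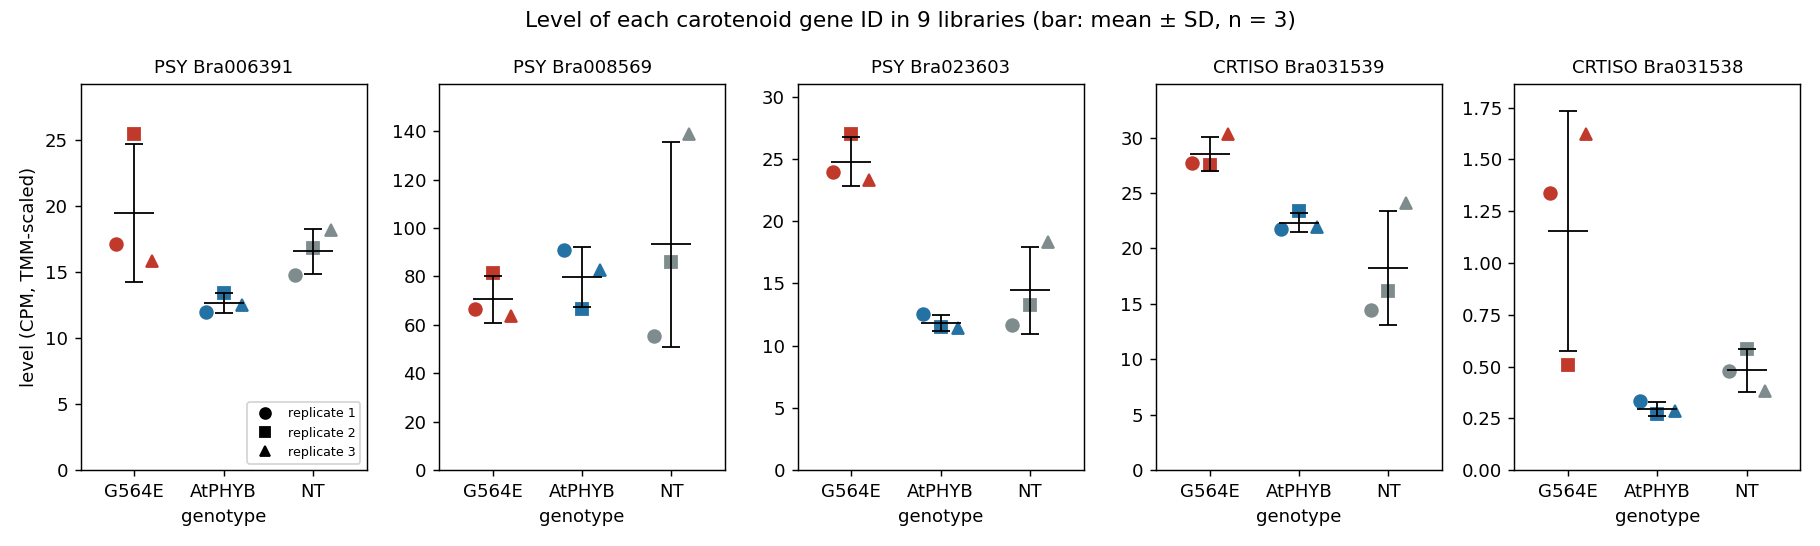
Level of each of the 5 gene IDs (vertical axes, CPM on TMM-scaled library sizes, each from 0) in the G564E, AtPHYB and NT libraries; symbols are libraries, and bars give mean ± SD of 3 libraries. For Bra023603 and Bra031539 all G564E libraries lie above all others, whereas for Bra008569 the NT libraries, at 55.2 to 139 CPM, enclose all others.

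The calls of the carotenoid IDs were set beside those of all tested genes. In G564E minus NT, 27.0% of 27967 tested genes were called (13.8% higher and 13.2% lower), and Bra023603 and Bra031539 were called, both higher, of the 4 IDs other than Bra031538. Libraries did not overlap at 43.8% of tested genes, with all G564E libraries above all NT libraries at 22.2% and below at 21.6%, and the same 2 IDs were above. In G564E minus AtPHYB, 35.0% were called (18.4% higher and 16.6% lower), and Bra023603 and Bra006391 were called, both higher, of the same 4 IDs. Bra031538 was also called higher, but had passed the filter through its G564E libraries. Libraries did not overlap at 50.5% of all tested genes in this comparison, with all G564E libraries above all AtPHYB libraries at 25.8% and below at 24.6%, and Bra023603, Bra006391, Bra031539 and Bra031538 had all G564E libraries above. In AtPHYB minus NT, 0.190% of tested genes were called in edgeR (0.104% higher and 0.0858% lower). None of the 5 IDs was called there in edgeR, DESeq2 or limma-voom, and DESeq2 called 961 and limma-voom 47 of 27967 tested genes. An unadjusted edgeR p under 0.05 was found for 0 of the 5 IDs and for 3793 of 27967 tested genes. Bra006391 and Bra031538 had all AtPHYB libraries below all NT libraries, as did 13.5% of tested genes, while 13.2% had all of them above and 26.7% did not overlap. With 5 IDs, no share is read from these counts.

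In AtPHYB minus NT, the other IDs also gave values short of the threshold. Bra006391 had a log2 fold change of -0.39 ± 0.19 (SE), with a 95% interval from -0.83 to 0.046 (edgeR adjusted p = 0.419). Bra023603 stood at -0.29 ± 0.18, with an interval from -0.69 to 0.11 (edgeR adjusted p = 0.512), and at -0.082 without NT replicate 3 (edgeR adjusted p = 0.830). Bra031538 stood at -0.69 ± 0.52, with an interval from -1.88 to 0.50 (edgeR adjusted p = 0.596). These intervals include no change, decreases as large as their lower ends and increases as large as their upper ends.

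The sizes of the changes were likewise set beside those of all tested genes. The absolute log2 fold change of Bra023603 was exceeded by 32.3% of tested genes in G564E minus NT and by 25.9% in G564E minus AtPHYB. For Bra031539 the share was 39.2% in G564E minus NT, and for Bra006391 it was 45.5% in G564E minus AtPHYB. For Bra031538 it was 16.4% and 10.4% in these comparisons, and for Bra008569 56.5% and 80.8%. The median log2 fold change of the 4 IDs other than Bra031538 was 0.44 in G564E minus NT, 0.49 in G564E minus AtPHYB and -0.26 in AtPHYB minus NT, against 0.02, 0.05 and -0.0049 over all tested genes. The median absolute values were 0.52, 0.49 and 0.29 for these 4 IDs, against 0.48, 0.55 and 0.26 for all tested genes.

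**Figure D2:**
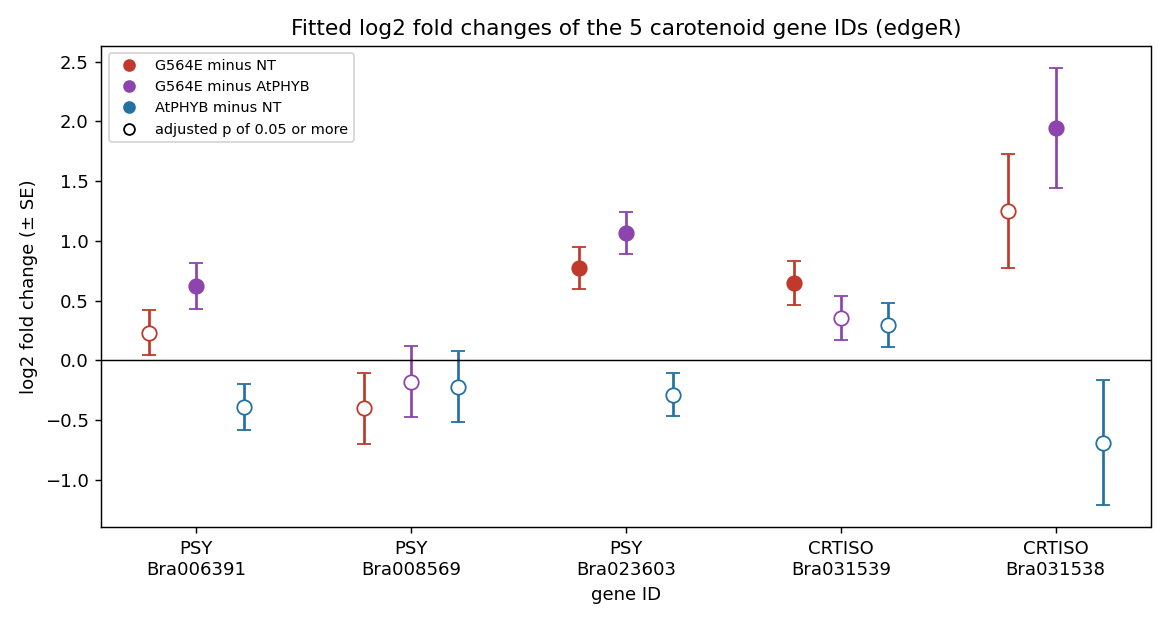
Fitted log2 fold change (vertical axis, ± SE from the edgeR fit to 9 libraries) of each gene ID in G564E minus NT, G564E minus AtPHYB and AtPHYB minus NT; filled symbols have an adjusted p under 0.05. Bra023603 is filled in both G564E comparisons, at 0.78 and 1.06, and no symbol of AtPHYB minus NT is filled.

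The scaling of the libraries mattered for the direction of small changes. With library size alone, the median log2 fold change of all tested genes was 0.34 in G564E minus NT and 0.47 in G564E minus AtPHYB, and of the called genes 7832 were higher and 2180 lower in the first, and 10786 higher and 2469 lower in the second. With TMM these were 3847 higher and 3698 lower, and 5140 higher and 4637 lower. For AtPHYB minus NT the median was -0.11 with library size alone, with 25 higher and 33 lower, against 29 higher and 24 lower with TMM. Relative to those medians, Bra023603 stood at 0.76 in G564E minus NT and 1.01 in G564E minus AtPHYB, and Bra031539 at 0.63 and 0.31. With library size alone 4 of the 5 IDs passed the threshold in each G564E comparison, all but Bra008569. These 4 include Bra031538, which had passed the filter through its G564E libraries. Of 27967 tested genes, 10012 passed in G564E minus NT and 13255 in G564E minus AtPHYB with this scaling. Bra008569 changed sign in G564E minus AtPHYB, to 0.23 (edgeR adjusted p = 0.549), or -0.24 relative to the median.

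Within NT, replicate 3 was highest and replicate 1 lowest at 4 of the 5 IDs, all but Bra031538. In NT the coefficient of variation was 10.4% for Bra006391, 45.3% for Bra008569, 24.1% for Bra023603 and 28.1% for Bra031539, each above the 2.40% to 6.10% that counting error alone would give. In AtPHYB it was 5.85%, 15.5%, 5.45% and 3.93% in the same order, and for all but Bra008569 this was below the counting error of 5.17% to 7.08%. In G564E it was 26.8%, 13.7%, 7.95% and 5.39%, with replicate 2 highest at all 3 PSY IDs and lowest at both CRTISO IDs. The labels give an age of 2 weeks for every NT library. Whether age within that label, growth or handling differed between NT libraries was not tested.

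Summed over the 3 IDs, PSY had 107, 134 and 103 CPM in G564E replicates 1 to 3, 115, 91.4 and 106 CPM in AtPHYB, and 81.7, 116 and 175 CPM in NT. The means of 115 ± 16.9 CPM in G564E, 104 ± 12.1 CPM in AtPHYB and 124 ± 47.4 CPM in NT (SD, n = 3 each) lay within the spread of NT. Bra008569 held most of the PSY reads in every library. Summed CRTISO was 29.7 ± 2.00 CPM in G564E, 22.6 ± 0.855 CPM in AtPHYB and 18.7 ± 5.05 CPM in NT (SD, n = 3 each) and consisted almost wholly of Bra031539. Sums carry no test here, because they are scores over chosen genes.

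The share of each ID in the PSY reads was then taken in each library. Bra023603 held 21.7 ± 1.37% of PSY reads in G564E, 11.4 ± 1.04% in AtPHYB and 12.1 ± 1.98% in NT (SD, n = 3 each), and the G564E libraries, at 20.2% to 22.7%, lay above all others, the highest of which was at 14.3%. Bra008569 held 61.5 ± 0.567% in G564E, 76.3 ± 3.19% in AtPHYB and 73.6 ± 5.77% in NT, with all G564E libraries below all others. Bra006391 held 16.8 ± 1.94% in G564E, 12.3 ± 2.20% in AtPHYB and 14.3 ± 3.85% in NT, with overlap between G564E and NT. A longer transcript yields more reads, so these shares are not transcript ratios, and only their change between genotypes is described.

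**Figure D3:**
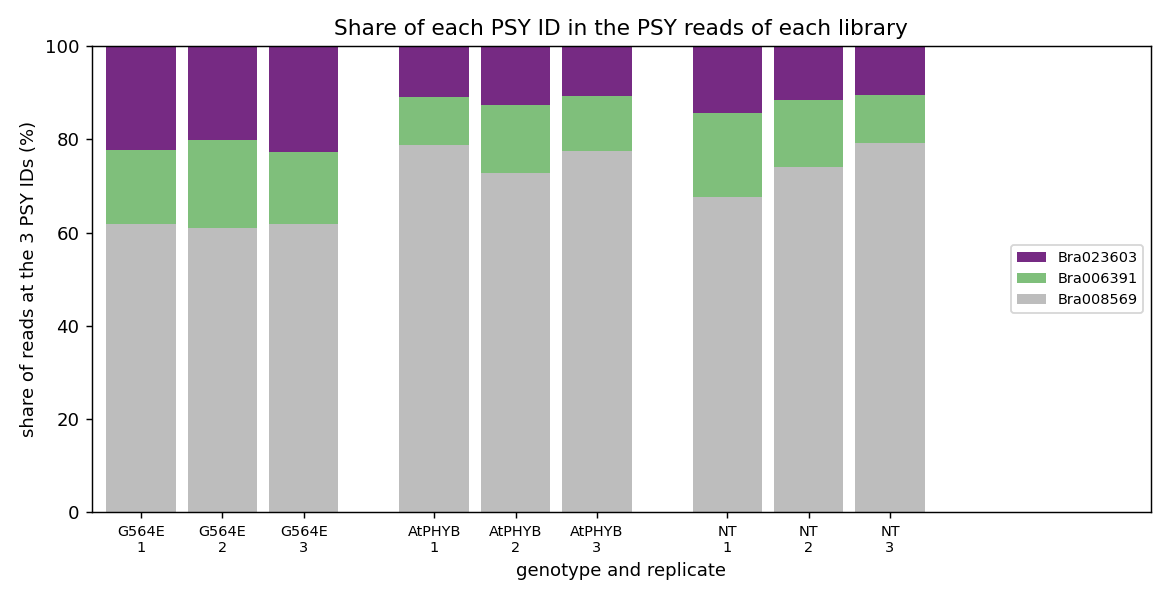
Share of each PSY ID (vertical axis, % of reads at the 3 PSY IDs) in each library, for replicates 1 to 3 of G564E, AtPHYB and NT. Bra023603 takes 20.2% to 22.7% in the G564E libraries and at most 14.3% in the others.

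Whether copies of 1 enzyme changed alike was tested on the log2 ratio of their counts within each library, which needs no scaling, by an exact permutation test of the F statistic over all arrangements of the genotype labels. The smallest p this design allows is 0.00357, and p-values were adjusted over the 4 pairs tested. The log2 ratio of Bra023603 to Bra008569 was -1.50 ± 0.0792 in G564E, -2.74 ± 0.188 in AtPHYB and -2.61 ± 0.344 in NT (SD, n = 3 each), and all G564E libraries were above all others. The exact permutation p was 0.0250, and 0.0571 after adjustment over the 4 pairs. The ratio of Bra023603 to Bra006391 was 0.38 ± 0.255 in G564E, -0.09 ± 0.149 in AtPHYB and -0.22 ± 0.203 in NT, again with all G564E libraries above all others (exact permutation p = 0.0286, adjusted 0.0571). For Bra006391 to Bra008569 the adjusted exact p was 0.121, and the NT libraries spanned -2.93 to -1.90. The fourth pair, Bra031538 to Bra031539, also had an adjusted exact p of 0.121, and rests on the ID that passed the filter through its G564E libraries. Adjusted over the 3 PSY pairs alone, a choice made after seeing the data, the exact p of both Bra023603 ratios was 0.0429. Whether these ratios passed the threshold thus depended on the pairs included.

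**Figure D4:**
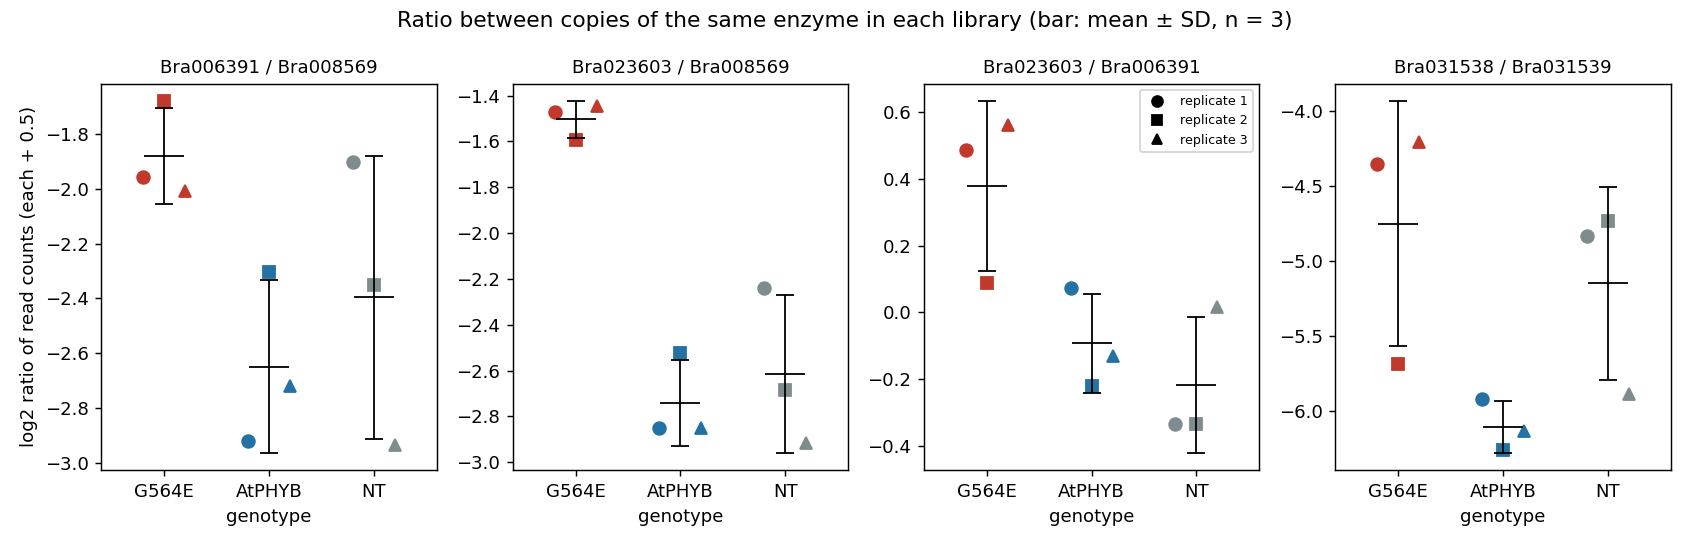
Log2 ratio of read counts (vertical axes, each count plus 0.5) of 4 pairs of copies in the G564E, AtPHYB and NT libraries, with mean ± SD of 3 libraries. In the panel of Bra023603 to Bra008569 the G564E libraries cluster around -1.50, above AtPHYB at -2.74 and NT at -2.61.

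Likeness of profiles was measured as the root mean square difference of log2 CPM over the 9 libraries, after centring each gene on its own mean, so that levels of different genes were not compared. Bra023603 was closer to Bra006391 (0.305) and to Bra031539 (0.324) than to Bra008569 (0.585), against a median of 0.630 between Bra023603 and all tested IDs. Of all tested IDs, 3.50% were nearer to Bra023603 than Bra006391 was, and 43.0% were nearer than Bra008569 was. The CRTISO IDs differed from each other by 0.674. Of all tested IDs, 65.7% were nearer to Bra031539 than Bra031538 was, and 22.7% were nearer to Bra031538 than Bra031539 was. The median to all tested IDs was 0.541 for Bra031539 and 0.846 for Bra031538. Because Bra031538 was counted at a low level, the 0.674 is not read as a divergence of the copies. The nearest ID of all was Bra023542 for Bra006391, at 0.101, and Bra027254 for Bra023603, at 0.128. It was Bra035762 for Bra008569, at 0.162, Bra027259 for Bra031539, at 0.126, and Bra011568 for Bra031538, at 0.242. The sources used here pair no name with any of these 5 IDs.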

How the data were processed

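RNA-seq counts of 9 whole-seedling libraries were used. The deposited values are raw read counts per gene ID, as their whole numbers show. Libraries were made with a stranded mRNA kit, per the labels' protocols. FastQC 0.11.8, Trimmomatic 0.39, TopHat2, HTSeq and edgeR are named in the submitters' processing notes, with settings, build, annotation and strand option not given in the sources used here.

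The analysis used edgeR 4.0.16 in R 4.3.3: filterByExpr at its defaults (27967 of 41020 IDs kept), TMM scaling, and 1 quasi-likelihood fit of the 3 genotype means to all 9 libraries. The two-sided p-values were adjusted by Benjamini-Hochberg across the tested IDs, with a threshold of 0.05. The SE is the absolute log2 fold change over the square root of F, and intervals use the fit's total degrees of freedom. DESeq2 1.42.0, limma-voom (limma 3.58.1), other scalings, filters and left-out libraries were alternatives. Copy ratios used a pseudocount of 0.5, and log2 CPM a prior count of 2. The fit and the permutation test were tested on simulated data.

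The genes, lists and tests were chosen with earlier results of these data known, although the rule for the genes names IDs only. The IDs described are the 5 chosen ones and, for each, the tested ID with the nearest profile. Lists of other carotenoid genes, light regulators and tissue markers had been set by symbol. Only 1 of the 41020 IDs was paired with a name in the RefSeq table (CAAS_Brap_v3.01, 51589 genes), and it was in no list, so these lists were not analysed, and neither the transgene nor the tissue was checked by markers.

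Labels number the replicates 1 to 3 in each genotype. Deviations from group means correlated at 0.41, 0.31 and 0.12 between G564E and AtPHYB libraries of the same number, all above 0.1. Libraries were therefore taken as paired by number for the replicate block, which covered all 9 libraries, NT included. Libraries of different number were not compared in this way, so these values cannot show that libraries of equal number were paired. The main fit did not use the pairing, and the block was not fitted to G564E and AtPHYB alone. The permutation test within the block had 216 arrangements, against 1680 without it. After adjustment over the 4 pairs, the Bra023603 ratios alone could not pass 0.05 in it, so it cannot decide them. Between G564E and NT the correlations were -0.15, -0.17 and 0.02, and between AtPHYB and NT -0.08, 0.03 and 0.09. None of these was above 0.1, so the pairing of NT libraries in the block had no such basis.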

Additional observations from a re-analysis of the deposited data

How the results depend on the processing

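Of 269 recomputed log2 fold changes of the 5 IDs, 234 kept their direction and their side of the threshold, 23 lost a call, 7 gained one and 5 changed sign. The sign changed for Bra008569 without NT replicate 3 in AtPHYB minus NT (0.18), without G564E replicate 1 and NT replicate 3 together in AtPHYB minus NT (0.18) and G564E minus NT (0.037), and with library size alone in G564E minus AtPHYB (0.23). It changed for Bra006391 without G564E replicate 2 in G564E minus NT (-0.018). With single libraries or those 2 libraries left out, Bra008569 ranged from -0.49 to 0.18 in AtPHYB minus NT and from -0.68 to 0.037 in G564E minus NT, and Bra006391 from -0.018 to 0.38 in G564E minus NT. None of these was called before or after. For Bra031538, a fit of AtPHYB and NT alone gave no value, because the ID then failed the low-count filter.

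In G564E minus NT, 3 of the 5 IDs, Bra031538 among them, had an unadjusted edgeR p under 0.05, as did 11414 of 27967 tested genes. The 2 called IDs became 4 with library size alone, where 10012 of 27967 tested genes were called. They became 1 when only G564E and NT libraries were fitted and 0 at an adjusted p under 0.01 (edgeR). They were 1 to 2 with single libraries left out. In G564E minus AtPHYB, the 3 became 1 at 0.01, and 1 to 4 with single libraries left out; 1 was left without any one AtPHYB library. In AtPHYB minus NT, the count was 0 with each single library left out and 1 without G564E replicate 1 and NT replicate 3 together. Over all genes, AtPHYB minus NT gave 53 calls, against 6 at 0.01, 17 with the replicate block, 199 with the compared genotypes alone, 961 in DESeq2, 3432 without those 2 libraries and 6 to 783 with single libraries left out. G564E minus NT gave 7545, against 3170 at 0.01 and 4829 to 10702 with single libraries left out, and G564E minus AtPHYB 9777, against 4684, 6063 to 12878 and, without those 2 libraries, 14002. The cause of these shifts was not tested.

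The adjusted exact p of the copy ratios was 0.0333 to 0.129 for Bra023603 to Bra008569 with single libraries left out, 0.0333 to 0.175 for Bra023603 to Bra006391, 0.0333 to 0.243 for Bra031538 to Bra031539 and 0.0821 to 0.279 for Bra006391 to Bra008569. Adjusted over the 3 PSY pairs alone, chosen after seeing the data, it was 0.0429 for both ratios of Bra023603. Permuting within the replicate block, NT included, gave 0.222 for each pair, with too few arrangements to decide those ratios. Library size alone gave mean summed PSY levels of 136 CPM in G564E, 93.0 CPM in AtPHYB and 117 CPM in NT. The highest mean was then that of G564E, whereas with TMM it was that of NT. For CRTISO it gave 35.1 CPM in G564E, 20.0 CPM in AtPHYB and 17.7 CPM in NT. In the replicate block fit, Bra023603 had log2 fold changes of 0.79 in G564E minus NT and 1.06 in G564E minus AtPHYB (edgeR adjusted p = 0.0272 and 0.00855), and no call of the 5 IDs changed.

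The called counts of the 5 IDs include Bra031538, which had 4 to 35 reads per library.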
